A study of Mus musculus with 4 samples.

Results

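The genes described here encode proteins of the cytosolic ribosome and a few close relatives of them. They were taken by gene symbol: a probe set was a member if the platform annotation gave it a single symbol of the Rpl or Rps series, or Rpsa or Fau, leaving out the Rps6k kinases and pseudogenes. The rule gave 50 probe sets of 36 genes, among 8251 genes and 12422 probe sets in all. By symbol alone, 17 genes were counted with the large (60S) and 19 with the small (40S) subunit. These counts include relatives such as Rpl7l1 and Rps4l. A further 39 probe sets carry a ribosomal protein symbol together with other symbols and are described only as a group. Total RNA of the seminal vesicle was hybridised to Affymetrix Mu74AV2 arrays, 1 for each of 4 samples. The mice were Nkx3.1 +/+ (carrying both intact copies of this homeobox gene), on the C57Bl/6J strain and 15 months old. The samples form 1 group with no treatment, so the values show which ribosomal protein genes gave signal in the gland and how far they differed between its mice. Each value is a log2 expression value per probe set.

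The ribosome reads mRNA on its small subunit and joins amino acids on its large subunit. Its proteins are made in near-equal numbers, and their mRNAs are among the most abundant of any cell. Most of these mRNAs begin with a C followed by a run of pyrimidines, the 5′ terminal oligopyrimidine (TOP) tract, through which growth signals passing by the kinase mTOR control their translation together. The seminal vesicle epithelium is an androgen-dependent secretory tissue that exports large amounts of a few proteins, and ribosomes bound to its rough endoplasmic reticulum make them.

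The start sites of the members are shown first because they carry the sequence feature that the genes are known to share. RefSeq start sites (GRCm38.p6) were found for 29 of the 36 genes. A C at an annotated start followed by at least 4 bases that are each C or T was present for 6 of the 29 genes, or 20.7%, against 813 of 27025 genes of the whole table, or 3.01%. The same 6 held at least 6 such bases after the C, against 349 genes, or 1.29%, of the table. When the C could lie up to 10 bases either side of the start, 18 of 29 members had a tract of at least 4 bases, or 62.1%, against 34.4% of all genes. Only the transcribed strand was read. The windows below run from 15 bases before the start to 15 bases from it on, 5′ to 3′, and the start is the 16th base. Capitals mark the C and the run of pyrimidines after it, as far as the window goes.
Fau (chr19:6057932-6057961, plus strand): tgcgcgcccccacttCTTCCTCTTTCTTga
Rps10 (chr17:27635230-27635259, minus strand): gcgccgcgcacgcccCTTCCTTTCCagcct
Rps18 (chr17:33955651-33955680, minus strand): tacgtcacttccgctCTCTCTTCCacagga
Rpl38 (chr11:114668565-114668594, plus strand): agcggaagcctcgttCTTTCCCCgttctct
Rps27 (chr3:90213634-90213663, minus strand): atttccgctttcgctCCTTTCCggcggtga
Rpl35a (chr16:33056467-33056496, plus strand): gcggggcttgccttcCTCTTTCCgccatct
Rpl41 (chr10:128549154-128549183, minus strand): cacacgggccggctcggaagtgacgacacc
Rps28 (chr17:33824548-33824577, minus strand): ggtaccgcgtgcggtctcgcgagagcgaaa
The first 6 are the genes with a tract at the annotated start, which for Rpl35a is 1 of 3 listed starts. The last 2, Rpl41 and Rps28, are shown for contrast because their probe sets were bright on every array while no tract lies within 10 bases of their annotated start. An annotated start can lie upstream or downstream of the base at which most transcripts begin, so a missing tract says only that these letters are not in this window.

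The tissue label was first set against its markers. All 6 measured genes of a list of seminal vesicle secretion proteins lay above the background range, among them Svs2 and Svs5 at 12.53 ± 0.10 and 13.09 ± 0.06 (SD, n = 4 mice). Pearson's r between arrays ran over all probe sets, which are not independent of each other, from 0.9916 to 0.9939, and over the 50 members from 0.9981 to 0.9993. At most 1 of 12422 values was identical between a pair of arrays. As a limit of background, the 90th percentile of values for genes of other organs (72 genes, 90 probe sets) was taken per array, at 6.09, 5.96, 6.02 and 6.17 in mice 1 to 4. A probe set above its array's limit on all 4 arrays counts here as above the background range. In whole tissue, fewer cells of a type and less RNA per cell cannot be told apart.

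Of the 50 ribosomal protein probe sets, 24 were above the background range, or 48.0%, against 24.6% of all 12422 probe sets. By gene, 21 of 36 had at least 1 such probe set, with 9 of 17 genes of the large subunit and 12 of 19 of the small. The other 15 genes were not above the range by any probe set, and 10 genes lay under the array median by all of theirs on all 4 arrays. Of the 50 probe sets 15 carry a design suffix in their name (f, r, s or i), and 6 of these were above the range, against 18 of the 35 without one. The 6 were the brightest probe sets of Rpl41, Rps28, Rps24, Rpl7 and Rps13 and the dimmer of Rpl10a. Whether such probe sets read only the named gene was not tested. Whether a low value came from the probe set or from little mRNA was not tested either, and levels of different genes are not set against each other.

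**Figure D1:**
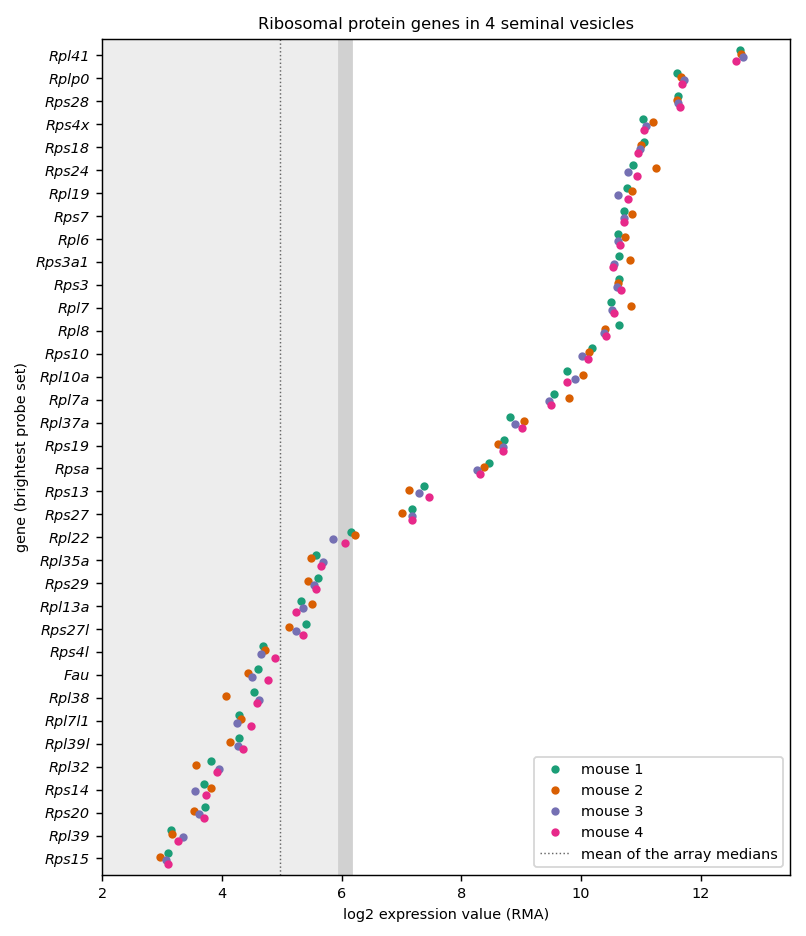
Log2 expression value (x axis) of the brightest probe set of each of 36 ribosomal protein genes (y axis, ordered by mean only for reading) in mice 1 to 4 (coloured points). Light grey marks values under the background limits, dark grey the span of the 4 arrays' limits from 5.96 to 6.17, and the dotted line the mean of the array medians; 21 genes lie to the right of the limits and the 4 mice lie close together for each gene.

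The ribosome's stalk, where GTPase translation factors dock, was represented by Rplp0, its scaffold protein, the only gene of the 4 listed for the stalk that was read by a single-gene probe set. Rplp0 had 11.60, 11.67, 11.72 and 11.69 in mice 1 to 4, a range of 0.113 log2 units. Rpl10a, the protein of the opposite L1 stalk, had 9.76, 10.04, 9.90 and 9.76 by its brighter probe set, highest in mouse 2. Neither gene of the 5S particle list, Rpl5 and Rpl11, had a single-gene probe set, so they were not analysed here.

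Near the peptidyl transferase centre, Rpl8 had 10.63, 10.40, 10.38 and 10.42 in mice 1 to 4. It was the only bright large-subunit gene with its highest value in mouse 1. At the rim of the tunnel through which the new chain leaves, 4 of 9 listed genes were measured and 1 was above the range. That gene, Rpl19, which also forms a bridge to the small subunit, had 10.77, 10.86, 10.62 and 10.78 by its brighter probe set. Rpl22, whose loss in mice impairs the development of alpha-beta T cells, stood at the limit with 6.16, 6.23, 5.86 and 6.05, above it in 2 of 4 mice. It was the only member above the limit in some mice and not in others. Rpl38, needed in mice for the translation of Hox mRNAs and for skeletal patterning, had 4.54, 4.07, 4.62 and 4.58 by its brighter probe set, and Rpl39 had 3.15, 3.17, 3.34 and 3.27, both under the range in every mouse.

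Other large-subunit genes gave bright probe sets as well. Rpl41, the smallest ribosomal protein, had 12.65, 12.68, 12.70 and 12.59 in mice 1 to 4. Rpl6 had 10.61, 10.73, 10.61 and 10.66, and its 4 mice differed by no more than 0.127 log2 units. Rpl7 had 10.50, 10.83, 10.51 and 10.55 by its brighter probe set, with mice 1, 3 and 4 close together and mouse 2 above them. Rpl7a, encoded within the tightly packed surfeit gene cluster, had 9.55, 9.80, 9.46 and 9.5, again highest in mouse 2. Its probe set was designed on the same source sequence as those annotated to the neighbouring genes Surf1 and Surf2. Rpl37a had 8.81, 9.05, 8.90 and 9.02 and lay above the range throughout. Rpl13a, which in human cells takes part in silencing inflammatory mRNAs after interferon gamma, had 5.32, 5.51, 5.35 and 5.23, under the range. Rpl35a, mutated in some human Diamond-Blackfan anaemia, had 5.57, 5.48, 5.69 and 5.65, and Rpl32 had 3.82, 3.57, 3.95 and 3.91, both under it too.

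On the small subunit, Rps3, which lines the entry channel for mRNA, had 10.64, 10.61, 10.60 and 10.67 in mice 1 to 4, a range of 0.0765 log2 units. Rps15, whose tail reaches towards the decoding site and which was the other measured gene of the 5 listed for decoding and mRNA entry, had 3.1, 2.96, 3.07 and 3.09, under the array median in every mouse. Rps10, a head protein that is ubiquitinated when ribosomes collide, had 10.19, 10.14, 10.01 and 10.12. Rps20, marked in the same way on collided ribosomes, had 3.72, 3.53, 3.61 and 3.69. In each of these pairs the bright gene and the dim gene alike spread by under 0.2 log2 units over the mice.

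At the exit side of the mRNA channel, Rps28 had 11.62, 11.61, 11.62 and 11.66 by its brightest probe set, with an SD of 0.025 as deposited and 0.0862 after quantile normalization. Rpsa, also known as the laminin receptor precursor, had 8.46, 8.38, 8.26 and 8.31, and Rps14, a platform protein whose loss contributes to the human 5q- syndrome, had 3.70, 3.82, 3.54 and 3.73. Only Rps14 of these 3 was under the range. Fau, which makes a ubiquitin-like protein fused to the ribosomal protein S30, had 4.60, 4.44, 4.50 and 4.76, also under it.

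Among the remaining small-subunit genes, Rps18 had 11.06, 11.01, 10.99 and 10.96 and Rps19, the gene most often mutated in human Diamond-Blackfan anaemia, had 8.72, 8.62, 8.70 and 8.70. As deposited, these 2 belonged to the 4 bright genes of smallest SD, with Rps3 and Rps28, an order that depended on the scaling. After quantile normalization the SD of Rps18 was 0.0366 and that of Rps19 0.0739, with 0.0897 for Rps3. Rps7 had 10.72, 10.85, 10.72 and 10.72, with mouse 2 above the other mice as deposited but lowest after quantile normalization. Rps3a1 had 10.64, 10.82, 10.55 and 10.54, and Rps24 had 10.87, 11.25, 10.79 and 10.93 by its brighter probe set. Both were highest in mouse 2 as deposited. After quantile normalization Rps24 still was, while Rps3a1 was tied between mice 1 and 2, each 0.048 above its mean. Rps13, which forms a bridge between the subunits, had 7.37, 7.13, 7.30 and 7.46, and Rps27 had 7.17, 7.0, 7.17 and 7.17. In these last 2, mouse 2 was the lowest. Rps29 had 5.60, 5.43, 5.53 and 5.57 by its brighter probe set and was under the range. Of the 11 genes listed for Diamond-Blackfan anaemia 5 were measured, and 4 of these were above the range, with Rpl35a the exception.

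Paralogs and relatives outside the standard set stayed under the background range in all 4 cases. Rpl39l, expressed in mouse male germ cells, had 4.28, 4.14, 4.26 and 4.35 in mice 1 to 4. Rps27l, a paralog of Rps27 induced by p53, had 5.40, 5.12, 5.23 and 5.36, and Rpl7l1, a divergent relative of Rpl7, had 4.28, 4.32, 4.25 and 4.49. Rps4l, which RefSeq lists as a transcribed pseudogene although its symbol has no pseudogene suffix, had 4.69, 4.71, 4.65 and 4.88 by its brighter probe set. Its X-linked relative Rps4x had 11.03, 11.21, 11.08 and 11.05 by its brightest.

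Probe sets of the same gene often disagreed. Of 36 genes, 10 had more than 1 probe set, and in 4 of these some probe sets were above the background range and others were not. In 5 the means of the brightest and the dimmest differed by more than 2 log2 units. Rps4x was read by 5 probe sets, of which 1 was bright and the other 4 averaged 5.39, 5.28, 4.89 and 3.05, all under the background limits. Rps28 had means of 11.63, 11.13 and 4.82, and the first and the last of these were designed on the same source sequence. Rpl19 had 10.76 and 6.73, both above the range, and as deposited mouse 2 was the highest of the 4 by the brighter and the lowest by the dimmer. After quantile normalization mouse 2 was the lowest by the dimmer, and by the brighter it was tied with mouse 3 as the lowest, each at a deviation of -0.046.

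The second probe sets of Rpl7 and Rps24 were also dim. Rpl7 had means of 10.60 and 4.25, and Rps24 had 10.96 and 3.54. The bright Rps24 probe set was designed on the same source sequence as the bright Rpl7 probe set, and both were highest in mouse 2, by 0.288 above the gene's 4-mouse mean for Rps24 and 0.234 for Rpl7 as deposited, and by 0.212 and 0.104 after quantile normalization. The dim Rps24 probe set had 3.46, 3.59, 3.52 and 3.59. Which transcript the bright Rps24 probe set reads was not tested. Both Rpl10a probe sets, at means of 9.87 and 8.60, were highest in mouse 2, the second with 8.47, 8.89, 8.57 and 8.45.

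**Figure D2:**
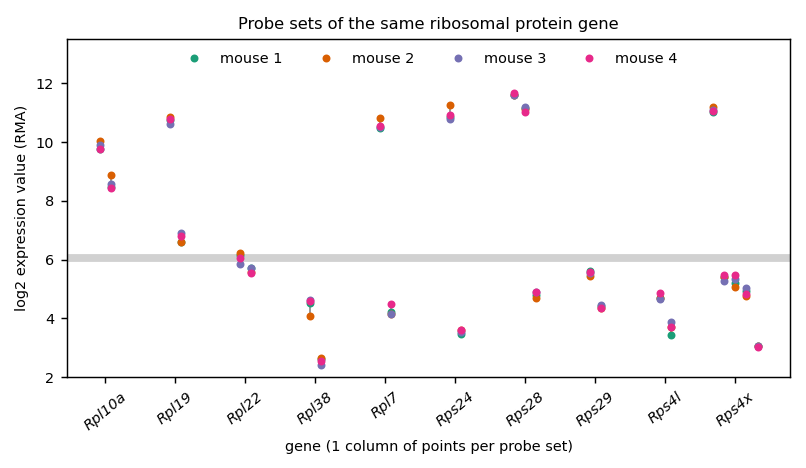
Log2 expression values (y axis) of every probe set of the 10 ribosomal protein genes with more than 1 probe set (x axis, 1 column of 4 points per probe set, coloured by mouse, brightest probe set left). The grey band spans the background limits of the 4 arrays; Rpl7, Rps24, Rps28 and Rps4x have probe sets on both sides of it.

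Differences between the mice were small in every member. Over the 50 probe sets the SD over the 4 mice had a median of 0.0964 and ran from 0.0229 to 0.258 log2 units, against a median of 0.112 over all probe sets. The range over the mice exceeded 0.5 log2 units in 1 of 50 members, or 2%, against 1061 of 12422 probe sets, or 8.54%. That member was the brighter Rpl38 probe set. The SD exceeded the SD that limma's model fits for probe sets of the same signal in 18 of 50 members, or 36.0%, against 44.1% of all probe sets. The median ratio of a member's SD to that fitted SD was 0.762, against 0.927 for all probe sets.

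No member was called as spreading more between the mice than is typical for probe sets of its signal. Each variance was set against a prior variance. That prior is fitted by limma, at the same signal, to the spread of all probe sets between these same mice. The comparison was an upper-tail F test with Benjamini-Hochberg adjustment, in which differences of ordinary size cannot be called. It called 0 of 50 members at an adjusted p under 0.05, against 35 of 12422 probe sets, or 0.282%. At an unadjusted p under 0.05 there were 0 of 50 members, against 676 probe sets, or 5.44%. Rpl38 came nearest, with an SD of 0.258 (unadjusted p = 0.0529, adjusted p = 0.917, limma), its value in mouse 2 lying under those of the other mice. Rps24 followed with an SD of 0.201 (unadjusted p = 0.120, adjusted p = 0.993, limma). With 3 residual degrees of freedom only large differences can pass, and a p that misses the threshold does not show that the mice were alike.

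**Figure D3:**
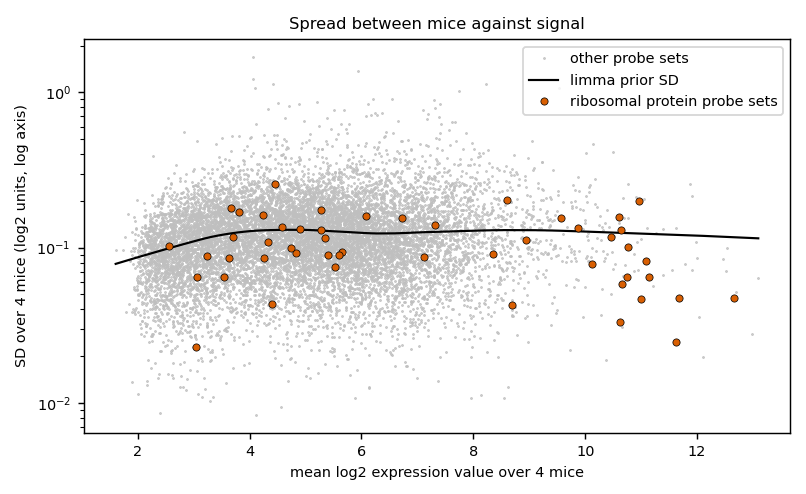
SD over the 4 mice (y axis, log2 units, log axis) against mean log2 expression value (x axis) for 12422 probe sets (grey) and the 50 ribosomal protein probe sets (orange), with the SD of limma's prior as a line. The members lie on both sides of the line, 18 of 50 above it, and none is far above.

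The members above the range leaned towards mouse 2, and this depended on how the arrays were scaled. Set against the mean of each probe set over the mice, they deviated on average by -0.013, 0.058, -0.029 and -0.016 log2 units in mice 1 to 4. In 11 of 24 mouse 2 was the highest, or 45.8%, against 30.0% of the 3052 probe sets above the range. After quantile normalization of the 4 arrays the mean deviation in mouse 2 was -0.009. There 6 of 24 were highest, all among the 11, against 24.2% of the 3052, while 11 of 24 were lowest, or 45.8%, against 37.2%. Under that scaling some bright probe sets were tied between mice, such as Rps4x at 0.052 in mice 2 and 4. In all such counts a tie went to the mouse first in order, so the counts depend on that order. With the arrays only shifted to the same median, the lean was larger, at 0.079 with 12 of 24 highest in mouse 2. With the 75th percentile or the array median as the limit, which took in 32 probe sets, the deviation was 0.0335 with 13 highest. The members not above the range went the other way, with 13 of 26 lowest in mouse 2, or 50.0%, against 38.4% of the 9370 probe sets not above it, and 12 of 26 after quantile normalization, or 46.2%, against 29.3%. Over all 50 members the mean deviations were -0.004, -0.004, -0.013 and 0.021 in mice 1 to 4.

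The array of mouse 2 itself had a wider distribution of values. The SD over its 12422 probe sets was 1.78, against 1.75, 1.76 and 1.74 in mice 1, 3 and 4. Its median deviation was -0.042 over 3949 probe sets with a mean under 4 and 0.071 over the 95 with a mean of 10 or more, of which 15 were members. Among probe sets with a mean over 9.5, mouse 2 was the highest for 9 of 17 members, against 61 of all 140, or 43.6%. A sign of RNA quality is how far 3′ control probe sets exceed 5′ ones, and for beta-actin this was 1.08, 0.82, 1.02 and 0.98 in mice 1 to 4, lowest in mouse 2, and for Gapdh it was -0.116, -0.147, -0.150 and -0.134. The seminal vesicle secretion list was also highest in mouse 2, at -0.024, 0.091, -0.028 and -0.039 over all its probe sets. The erythrocyte list had 1 of 5 genes above the range. Over all its probe sets it had mean levels from 4.75 to 5.12 and deviations of -0.093, 0.157, -0.207 and 0.143, with no probe set averaging under 2.48. Other marker lists also differed between the mice. The B and plasma cell list had 2 of 7 genes above the range, the immunoglobulin genes Igha and Ighm. They were read there by 3 probe sets that limma all called, with deviations of -0.112, 0.688, 0.592 and -1.167 in mice 1 to 4. Over all 26 of its probe sets the deviations were -0.049, 0.111, 0.142 and -0.203, with mean levels from 4.53 to 4.88. Of its genes not above the range, Jchain went the same way with 5.86, 6.55, 6.74 and 5.20, while Cd79a did not, with 6.13, 5.84, 5.90 and 6.17. The dimmer Ighm probe sets disagreed among themselves. Some went the same way, such as that with 4.74, 5.25, 5.15 and 4.41. Others did not, such as that with 4.85, 4.67, 5.37 and 6.03 (adjusted p = 0.0849, limma). The macrophage and dendritic cell list had 6 of 13 above the range, and the probe sets above it deviated by -0.119, 0.117, 0.282 and -0.281. Over all 18 of its probe sets the deviations were -0.032, 0.074, 0.109 and -0.151, with mean levels from 5.46 to 5.72. The smooth muscle list had 10 of 11 above the range, and the probe sets above it deviated by 0.355, -0.159, -0.059 and -0.137. Over all 13 of its probe sets the deviations were 0.322, -0.174, -0.040 and -0.108, with mean levels from 8.14 to 8.64. The part of these in the lean was not tested.

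**Figure D4:**
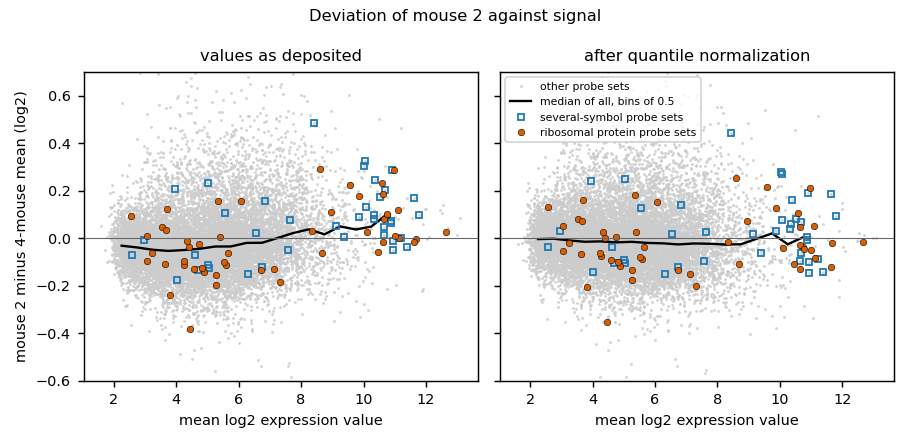
Deviation of mouse 2 from the 4-mouse mean in log2 units (y axis) against mean log2 expression value (x axis), as deposited (left) and after quantile normalization (right), for ribosomal protein probe sets (orange), probe sets with several symbols (blue squares) and all others (grey, 27 outside the plotted range on each side). In the deposited values the median of all probe sets (line, bins of at least 20) climbs with signal, and after quantile normalization it stays near 0.

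By subunit, the 11 bright large-subunit probe sets had a mean deviation of 0.095 in mouse 2, and 7 were highest there. The 13 bright small-subunit probe sets had 0.026, and 4 were highest there. These were 63.6% and 30.8%, against 30.0% of the 3052 probe sets above the range. After quantile normalization the values in mouse 2 were 0.038 and -0.048. There 4 of 11 and 2 of 13 were highest, or 36.4% and 15.4%, against 24.2%. Among single genes under that scaling, Rpl7a lay 0.216 above its mean in mouse 2, Rps24 0.212 and Rpl10a 0.129. Rps13 lay at -0.20, Rps27 at -0.149, Rps3 at -0.131 and Rpl8, of the large subunit, at -0.109. The dimmer probe sets of Rpl10a and Rpl19 lay at 0.255 and -0.134. The bright Rps24 probe set, counted with the small subunit, shares its source sequence with that of Rpl7. None of these genes was called under any scaling, and the difference between the subunits was not tested.

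The probe sets with several symbols, not used to choose or describe the members were then set beside them. Of the 39, 29 were above the range, or 74.4%, against 24.6% of all probe sets. Limma called 0 of 39, against 0.282% of all, and 1 had an unadjusted p under 0.05, against 5.44%. Among the 29, 17 were highest in mouse 2, or 58.6%, against 30.0% of the 3052 probe sets above the range. After quantile normalization 12 were, or 41.4%, against 24.2%. The mean deviations of the 29 were -0.013, 0.095, -0.054 and -0.028 in mice 1 to 4 as deposited and -0.013, 0.038, -0.040 and 0.015 after quantile normalization.

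Other mRNAs with a TOP tract and genes that serve the ribosome were counted in the same way. For comparison, 2477 of all 8251 genes had a probe set above the range. Of 20 measured genes on the list of other TOP mRNAs, 11 were above the range, each by 1 probe set. Mouse 2 was the highest for 10 of these 11, or 90.9%, against 30.0% of the 3052 probe sets above the range. After quantile normalization it was the highest for 7, against 24.2%. The exception, named after its values were seen, was Eef1b2, a subunit of the exchange factor for elongation factor 1A. The mean deviation of the 11 in mouse 2 was 0.231, against 0.017 for all 3052, and 0.164 after quantile normalization, against -0.008. Over all 31 probe sets of the list it was smaller, at 0.083 as deposited, against -0.015 for all 12422, and 0.076 after quantile normalization. Those not above the range were mixed as deposited, with Vim lowest in mouse 2 and both Nap1l1 probe sets highest.

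Npm1, a nucleolar chaperone of ribosome assembly, had 7.52, 8.21, 7.73 and 7.47 in mice 1 to 4 (adjusted p = 0.624, limma). It had the largest SD of the 11, at 0.339. Naca, which shields new chains at the tunnel exit, had 8.88, 9.31, 8.84 and 8.77 (adjusted p = 0.939, limma), and Eif4a2, an initiation helicase, had 8.76, 8.99, 8.48 and 8.53 (adjusted p = 0.957, limma). All 3 were highest in mouse 2, by more than the other mice differed among themselves in Npm1 and Naca but not in Eif4a2. Of the whole list's 31 probe sets 2 were called by limma, those of the small nucleolar RNA hosts Gas5 (6.85, 5.08, 7.37 and 4.49, adjusted p = 0.00296) and Snhg6 (4.57, 6.22, 5.55 and 5.21, adjusted p = 0.0453). Neither was above the range on all 4 arrays, and both RNAs are non-coding. The other probe sets of these genes did not show such a spread. Those of Gas5 had 5.06, 4.86, 5.29 and 4.93, and 2.58, 2.38, 2.60 and 2.49 (adjusted p = 0.993 for each, limma). The other Snhg6 probe set averaged 2.47 with an SD of 0.077 and was not called.

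Genes that build ribosomes were counted next, with Npm1 on this list too. On the ribosome biogenesis list 17 of 44 measured genes were above the range, against 2477 of all 8251 genes. In mouse 2, 6 of the 17 were highest and 8 lowest, against 30.0% and 31.3% of the 3052 probe sets above the range, and the mean deviation of the 17 there was -0.023. Of the list's 57 probe sets 0 were called by limma, with 6 at an unadjusted p under 0.05, against 0.282% and 5.44% of all probe sets. Ncl, the nucleolar protein nucleolin, had 5.67, 6.70, 5.77 and 6.19 (adjusted p = 0.208, limma), the largest SD of the list. Mitochondrial ribosomal proteins, which serve the separate ribosome of the mitochondrion, had 23 of 61 genes above the range, and 0 of 76 probe sets were called, with 2 at an unadjusted p under 0.05. Their mean deviation in mouse 2 was -0.007 over the 26 probe sets above the range.

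The list of mTOR and Myc signalling genes had 11 of 19 measured genes above the range, against 2477 of all 8251 genes. Limma called 0 of its 29 probe sets, with 3 at an unadjusted p under 0.05, against 0.282% and 5.44% of all probe sets. Ddit4, an inhibitor of mTOR complex activity induced by stress, came nearest, with 7.33, 7.09, 8.56 and 7.51 over the mice and an SD of 0.649 (limma, adjusted p = 0.0589). It was highest in mouse 3. The bright ribosomal protein probe sets had a mean deviation there of -0.029 as deposited and -0.014 after quantile normalization, and a link between the 2 was not tested. Myc, which promotes transcription of ribosomal protein genes, had 4.11, 4.32, 3.69 and 4.17 and was under the range.

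**Figure D5:**
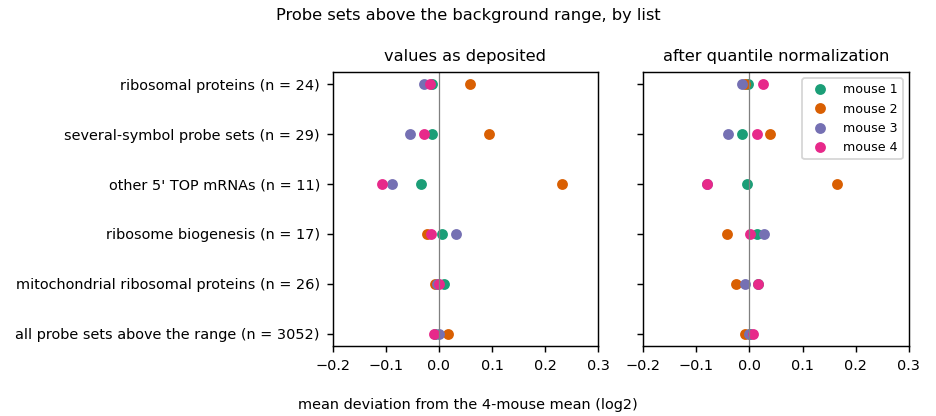
Mean deviation from each probe set's 4-mouse mean in log2 units (x axis) for mice 1 to 4 (coloured points), over the probe sets above the background range of each list (y axis, n is the number of probe sets), as deposited (left) and after quantile normalization (right). Mouse 2 lies at 0.058 for the ribosomal proteins and 0.231 for the other TOP mRNAs as deposited, and at -0.009 and 0.164 after quantile normalization.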

How the data were processed

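The deposited values are on a log2 scale, as their range shows. The submitters' processing notes name RMA, a method that corrects background, equalises distributions across arrays and combines the probes of a set. Its version was not given in the sources used here, nor was the set of arrays normalized together, so small shifts between arrays can remain or be removed by it. The file held 12488 probe sets, and 66 controls were left out. Of 12422, 10833 had a single symbol, 396 several and 1193 none. All 36 member genes matched RefSeq by gene ID. Each sample is called a mouse, numbered in the order of the series, and the labels carry a separate identifier for each. A gene is represented by its brightest probe set unless said otherwise.

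Variances over 4 arrays were tested against limma's prior (robust, trended on mean signal, 8.06 prior degrees of freedom). Only the prior came from limma, and the F test on it was run separately. Calls and p-values marked limma in the text are those of this F test. Genes were named by a rule that took 32 of 36: called members, the 8 largest and 4 smallest SDs among bright genes, genes of the role lists, genes not above the background range, and genes whose probe sets differed by over 2. The other 4, Rpl6, Rpl41, Rps7 and Rps27, were named to account for every member. The gene family and the lists were chosen with earlier results of these data known, though membership itself goes by symbol alone. The test was also run on simulated data drawn independently from its own fitted prior, which cannot show how well it suits real arrays. Other scalings, prior fits, limits, probe set choices and left-out mice were tried. R 4.3.3, limma 3.58.1 and Python 3.11.15 were used. The number of arrays limits precision, and p-values measure only the spread between these 4 samples.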

Additional observations from a re-analysis of the deposited data

Results flagged for a closer look

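In 5 of the 50 ribosomal protein probe sets, or 10%, 1 mouse stood apart from the other 3 by more than Dixon's 95% limit for the gap as a share of the whole range in 4 samples. The same held for 632 of all 12422 probe sets, or 5.09%, and chance flags about 1 in 20 groups. After quantile normalization it held for 6 of 50 members, or 12%, against 5.47% of all, but these were largely other probe sets. The dimmer Rpl7 probe set and Rps27 were flagged under both scalings, while Rpl38, the brighter Rpl7 probe set and Rps7 were flagged only as deposited. Rpl41, Rplp0, Rps15 and Rps19 were flagged only after quantile normalization, and in Rpl41 and Rplp0 the other 3 mice were then tied. As deposited, in Rpl38 mouse 2 was low at 4.07, against 4.54 to 4.62. In Rps27 mouse 2 was low at 7.0, against 7.17 in each other mouse. In Rpl7 mouse 2 was high at 10.83 by the brighter probe set, against 10.50 to 10.55, and mouse 4 was high at 4.49 by the dimmer, against 4.15 to 4.20. In Rps7 mouse 2 was high at 10.85, against 10.72 in each other mouse, but mouse 2 was the lowest after quantile normalization. None of the 5 was called by the test of variance against limma's prior.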

How the results depend on the processing

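Members called stayed at 0 under the 11 alternatives tried, and the 32 named genes stayed uncalled in all 274 repeats (lowest adjusted p 0.779, limma). The count of all probe sets called went to 15 with a non-robust prior, to 0 with only probe sets above the mean limit of 6.06 tested (a smaller tested set), and ranged from 17 to 44 without 1 mouse, with 23 without mouse 2 and 17 without mouse 4. Members above the range were 24 to 32 throughout, except 21 with 1 probe set per gene. The mean deviation of all members moved to -0.0206 in mouse 1 and 0.0172 in mouse 2 with arrays shifted to the same median, to -0.0199 in mouse 2 with quantile normalization, and to -0.0305 in mouse 3 with 1 probe set per gene. With only members above the range it was 0.0579, -0.0292 and -0.0159 in mice 2, 3 and 4. For those members, in an alternative chosen after seeing the data, quantile normalization gave 6 highest in mouse 2 and a deviation of -0.0087 there, median shifting gave 12 and 0.079, and the 75th percentile or array median as limit gave 13 and 0.0335. Member genes with a tract went to 18 when it could lie within 10 bases of the start. The cause of these changes was not tested. No paired analysis was possible because the labels give 1 group. Signal over background limits the dim members most.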
